A study of Mus musculus with 8 samples.

Results

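Ces2a, Ces2b, Ces2c, Ces2e, Ces2g, Ces3a and Ces3b of the carboxylesterase 2 and 3 families and Aadac, the gene of arylacetamide deacetylase, were followed in mouse liver across 2 genotypes and 2 diets. They were taken by symbol, and all 8 were found among the 22923 symbols of each deposited table. The livers came from C57BL/6 mice, either Xbp1flox controls or mice labelled Xbp1-/-, whose deletion is described as hepatic. The sources used here do not give what drove the deletion, nor the age and sex of the mice. Mice of both genotypes received regular chow, or for 4 weeks a high-fat diet that also held a high-fructose corn syrup equivalent. Each of the 4 cohorts held 4 mice, pooled into 2 libraries, and the tables give each cohort a single RPKM figure for every gene (reads adjusted for the length of the transcript and the size of the library). No value below therefore has a replicate or an error, the spread between libraries is unknown, and no difference was tested. Levels are given first for flox livers (chow, then the high-fat diet) and then for knockout livers on the same diets.

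Carboxylesterases are serine hydrolases that reside in the lumen of the endoplasmic reticulum (ER). In liver and intestine they cleave ester and amide bonds of drugs, prodrugs and lipids, and Ces2 enzymes have been linked to the hydrolysis of acylglycerols. Aadac is a membrane-bound esterase of the same compartment, with its active site on the lumenal side, which removes acetyl groups from arylacetamide drugs. Xbp1 encodes a transcription factor that the ER stress sensor IRE1 activates by splicing its messenger RNA. Liver that lacks Xbp1 is known for hyperactive IRE1, which also cleaves other messenger RNAs.

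The 7 carboxylesterase members lie in a row, all on the plus strand, within 359.9 kb of mm10 chromosome 8 (104734003 to 105093929, GENCODE M21). Ces2a stands first (ENSMUSG00000055730.16, 104734003 to 104741634), followed by Ces2b (104831572 to 104840093), Ces2c (104847068 to 104854483) and the pseudogene Ces2d-ps (104867488 to 104873861). Next come Ces2e (ENSMUSG00000031886.14, 104926260 to 104934672), Ces2g (104961718 to 104969537), and after them Ces3a (105048601 to 105058413) and Ces3b (ENSMUSG00000062181.14, 105083753 to 105093929). In the same row Ces2f is annotated between Ces2e and Ces2g, and Ces2h between Ces2g and Ces3a. Ces2f was listed at 0 in all groups and Ces2h is not analysed here. Aadac lies apart on chromosome 3 (60025717 to 60040160).

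Members of the family resemble each other, which bears on how reads are divided between them. Among windows of 50 bases in the longest coding transcript, 30.8% of those of Ces3a occurred in Ces3b, and the 2 transcripts were identical at 95.4% of aligned bases. Ces2c shared 38.2% of its windows with Ces2d-ps. For Ces2a the share found in any other member or in Ces2d-ps, Ces2f or Ces2h was 2.35%, for Ces2e 3.36%, for Ces2g 3.38%, for Ces2b 4.50% and for Aadac 0%. The split between Ces3a and Ces3b, and that between Ces2c and its pseudogene, is therefore uncertain for shared windows, and more so than for Ces2a, Ces2e and Ces2g. Windows found in any other gene compared made up 30.8% of those of Ces3a, 26.1% of Ces3b and 40.2% of Ces2c. Most windows of each member were thus its own among these genes. The treatment of multiply mapping reads is not stated in the labels or headers.

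Ces2a and Ces3b had the largest changes and Ces2e among the smallest, so the 250 bases before their start sites are shown, from RefSeq on GRCm38.p6, plus strand, at chr8:104733753-104734002 for Ces2a, chr8:104926010-104926259 for Ces2e and chr8:105083505-105083754 for Ces3b. Capitals mark ACTTTG, the reverse complement of CAAAGT, which is the core of the sequence that the liver factor HNF4 recognises. The Ces3b window holds none and is printed in lower case throughout.
Ces2a: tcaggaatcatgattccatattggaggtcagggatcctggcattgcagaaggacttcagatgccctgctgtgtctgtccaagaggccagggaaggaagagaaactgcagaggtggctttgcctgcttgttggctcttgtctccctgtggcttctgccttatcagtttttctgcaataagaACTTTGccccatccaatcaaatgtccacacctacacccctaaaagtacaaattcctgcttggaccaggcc
Ces2e: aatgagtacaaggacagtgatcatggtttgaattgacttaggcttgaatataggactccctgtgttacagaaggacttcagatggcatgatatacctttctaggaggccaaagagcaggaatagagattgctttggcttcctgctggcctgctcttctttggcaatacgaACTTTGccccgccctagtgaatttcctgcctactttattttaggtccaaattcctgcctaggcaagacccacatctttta
Ces3b: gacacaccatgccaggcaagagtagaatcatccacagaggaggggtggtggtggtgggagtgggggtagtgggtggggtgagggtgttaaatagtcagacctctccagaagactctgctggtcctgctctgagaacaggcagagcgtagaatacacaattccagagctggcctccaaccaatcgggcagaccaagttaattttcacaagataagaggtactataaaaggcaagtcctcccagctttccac

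Promoter entries were matched for 6 members, namely those above, Ces2c, Ces2g and Aadac. The Aadac window, chr3:60031538-60031787, lies inside the GENCODE span of the gene, as the RefSeq start is downstream of the GENCODE gene start. Both strands of the 250 bases were searched for 6 short motifs. CAAAGT was in the windows of Ces2a (first base at -70 from the start), Ces2e (-80) and Ces2g (-117), and in 12.6% of all 32851 promoter windows. These 3 include the member with the largest differences between groups and the 2 with the smallest. Whether the motif bears on these differences was not tested. CCAAT was in the windows of 5 of the 6 (all but Ces2e) and in 33.8% of all windows. GTTAAT, part of the sequence HNF1 recognises, and TATAAA were each in 1 of the 6, that of Ces3b, against 6.43% and 12.4% of all windows. CCACG, part of the ER stress response element, which can overlap ACGTG, was in the window of Aadac alone, against 28.3% of all windows. ACGTG, a core shared by sequences that XBP1 recognises, was in 0 of the 6 and in 16.6% of all windows. A window without these letters says nothing of a factor's binding elsewhere.

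The hexamer CTGCAG, which occurs in the stem loops that IRE1 cleaves, was counted in the longest coding transcript of each member as a further sequence feature. Ces2a, Ces2c and Ces2e held 3 each, Ces2b 4, Ces2g, Ces3a and Ces3b 2 each, and Aadac 0. Of 10316 coding transcripts between 1300 and 3500 bases, 80.2% held at least 1, and the median was 2. Ces2a and Ces2e carry nearly the same sequence around 2 of these hexamers, all in coding sequence. The windows of 30 bases around them follow, with the hexamer in capitals and its position in the transcript in the name.
Ces2a at 1618: gatgagcagtacCTGCAGctggacacccag
Ces2e at 1613: gatgagcagtacCTGCAGctggacatccag
Ces2a at 1669: aaggccagaaggCTGCAGttctggaccaag
Ces2e at 1664: aaggccagaaggCTGCAGttctggaccaag
The third hexamer of Ces2a, at 355, lies in coding sequence and that of Ces2e, at 2479, beyond it. Whether these sequences fold into stem loops or are cleaved was not tested.

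The tables have limits that touch these genes. The RPKM values of all genes summed to between 367414 in knockout livers on the high-fat diet and 513694 in flox livers on chow, so a gene that keeps its share of the sum has a lower RPKM in the former. Values were therefore also rescaled in 2 ways, by the median log2 ratio among genes with at least 10 RPKM in every group (the median rescaling) and by the sum without the 50 most abundant genes. The albumin gene Alb was at 0 in every table, so an exact 0 can be a failed estimate. No member was at 0 in any group. Xbp1 stood at 112 and 90.7 RPKM in flox livers and at 44.2 and 34.1 in knockout livers, a value over the whole gene that includes any exon left after deletion.

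Ces3a was the most abundant member by RPKM in every group and Ces2b the least. In flox livers on chow the order ran Ces3a, Aadac, Ces3b, Ces2a, Ces2e, Ces2c, Ces2g and Ces2b. Ces3a, at 1241 RPKM, ranked 50th from the top among the 9713 genes with at least 1 RPKM, and Aadac, at 367 RPKM, ranked 214th. Together the 8 members summed to 2110 and 1958 RPKM in flox livers and to 1741 and 1167 in knockout livers, and Ces3a made up between 58.8% and 64.0% of these sums. Without replicates, neighbours in this order cannot be separated by their spread.

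**Figure D1:**
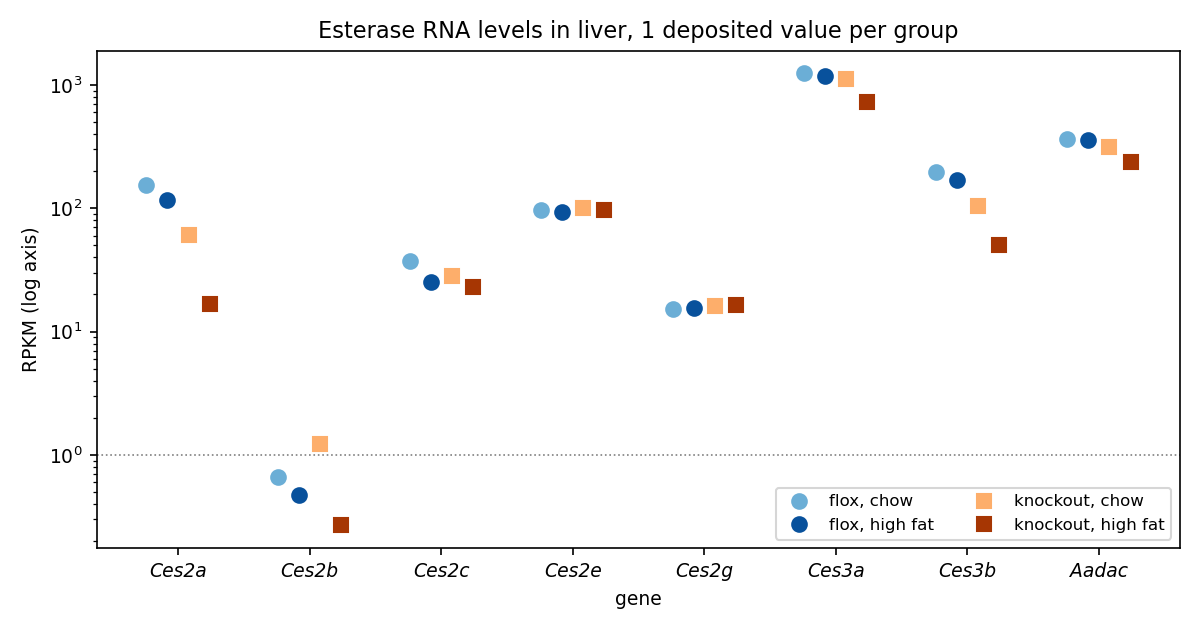
RPKM of the 8 genes on a log axis, with 1 point for each of the 4 groups (circles flox, squares knockout; lighter shade chow, darker shade high fat) and a dotted line at 1 RPKM. Ces2a runs from 155 down to 16.8 RPKM and Ces3b from 197 down to 50.03, while the 4 points of Ces2e lie between 92.7 and 101 RPKM.

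Ces2a, which encodes a Ces2 enzyme reported to hydrolyse acylglycerols in mouse liver, varied most among the members. It stood at 155 RPKM on chow and 116 on the high-fat diet in flox livers, and at 60.5 and 16.8 in knockout livers. Both knockout values lay below both flox values, and the value on the high-fat diet was the lower one within each genotype. The highest value was 9.24 times the lowest. In rank from the most abundant gene it was 489th of 9713 in flox livers on chow and 2304th of 10055 in knockout livers on the high-fat diet, a measure that no scaling of a group alters.

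Changes are given as the log2 ratio of RPKM + 1, which understates those of low genes, and a gene is said to have fallen or risen where this ratio reached 1 in size, a change of 2-fold. In knockout against flox livers on chow, Ces2a fell by 1.34 on the log2 scale, the 74th lowest value among 10322 genes. On the high-fat diet it fell by 2.72, the 6th lowest among 10327, and knockout livers held 14.4% of the flox level. Within knockout livers it fell by 1.79 with the high-fat diet, the 8th lowest of 10328, whereas in flox livers its log2 change with the diet was -0.41. The knockout change was lower on the high-fat diet than on chow by a log2 difference of -1.38, a difference between 4 single values that could not be tested.

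Ces3b, a Ces3 gene whose sequence is close to that of Ces3a, followed the same order of groups, as did Ces3a and Aadac in the deposited values. It was listed at 197 and 170 RPKM in flox livers, and at 104 and 50.03 in knockout livers. Its log2 change in knockout against flox livers was -0.91 on chow, just short of the threshold, and it fell by 1.75 on the high-fat diet, the 28th lowest of 10327. With the high-fat diet the log2 change was -0.21 in flox livers, and Ces3b fell by 1.05 in knockout livers, a fall that ended under both rescalings of the groups (-0.76 in each).

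Ces3a stood at 1241 and 1183 RPKM in flox livers and at 1114 and 726 in knockout livers. The last value was the lowest, at 58.5% of the first, and the others lay at 89.8% of it or more. Its log2 changes were -0.16 in knockout against flox livers on chow and -0.70 on the high-fat diet, both short of the threshold, and the latter was -0.42 after the median rescaling. The ratio of Ces3a to Ces3b was 6.31 and 6.95 in flox livers, and 10.7 and 14.5 in knockout livers. Because reads of the pair can be split between copies, their sum was also followed. It stood at 1438 and 1353 RPKM in flox livers and at 1219 and 776 in knockout livers. The log2 change of the sum in knockout against flox livers on the high-fat diet was -0.80, short of the threshold. Ces3a makes up most of the sum in every group, so the sum mainly follows Ces3a and cannot decide whether Ces3b fell.

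Aadac, the deacetylase, was listed at 367 and 355 RPKM in flox livers and at 315 and 238 in knockout livers. The 2 flox values lay close together and the last knockout value was the lowest. The log2 changes were -0.22 in knockout against flox livers on chow and -0.58 on the high-fat diet, which became -0.29 after the median rescaling. Aadac did not reach the threshold in any comparison, nor did it under that rescaling.

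Ces2e and Ces2g, which lie in the Ces2 row with Ces2f between them, were nearly level across the groups. Ces2e stood at 96.5 and 92.7 RPKM in flox livers and at 101 and 97.2 in knockout livers. Its highest value was 1.09 times its lowest. Ces2g was listed at 15.4 and 15.5 RPKM in flox livers and at 16.2 and 16.5 in knockout livers, with a highest value 1.08 times its lowest. Both knockout values exceeded both flox values in each gene, by small margins. In knockout against flox livers on the high-fat diet the log2 changes were 0.07 for Ces2e and 0.09 for Ces2g as deposited, and 0.35 and 0.36 after the median rescaling.

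The makeup of the Ces2 total changed with these levels. Ces2a held 50.9% of the summed RPKM of the 5 Ces2 members and 46.5% in flox livers on chow and the high-fat diet, but 29.2% and 10.9% in knockout livers. The share of Ces2e was 31.6% and 37.0% in flox livers and 48.8% and 63.3% in knockout livers. The ratio of Ces2a to Ces2e, which no scaling of the groups alters, was 1.61 and 1.26 in flox livers and 0.598 and 0.173 in knockout livers. Ces2a was above Ces2e in both flox groups and below it in both knockout groups.

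Ces2c, which encodes another Ces2 enzyme linked to acylglycerol hydrolysis, had its lowest log2 change with diet in flox livers. It stood at 37.2 and 25.2 RPKM in flox livers and at 28.2 and 22.8 in knockout livers. The first of these stood above the other three. The log2 change with the high-fat diet in flox livers was -0.55, the 206th lowest of 10322 genes, and in knockout livers -0.30 (-0.02 after either rescaling), so the threshold was not reached in either genotype. In knockout against flox livers the log2 change was -0.39 on chow and -0.14 on the high-fat diet, and the latter turned to 0.14 and 0.16 under the 2 rescalings. Ces2d-ps, the pseudogene that shares windows with it, stood at 12.9 and 7.95 RPKM in flox livers and at 9.25 and 7.43 in knockout livers.

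Ces2b was near the lower limit of the data, at 0.659 and 0.473 RPKM in flox livers and at 1.22 and 0.269 in knockout livers. It passed the filter of 1 RPKM through knockout livers on chow alone. The filter thus favoured a negative change with the diet in knockout livers and a negative difference between the knockout changes. Its log2 change with the high-fat diet in knockout livers, -0.80 with the pseudocount of 1, was -1.83 with a pseudocount of 0.1, so its size rests on that choice.

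**Figure D2:**
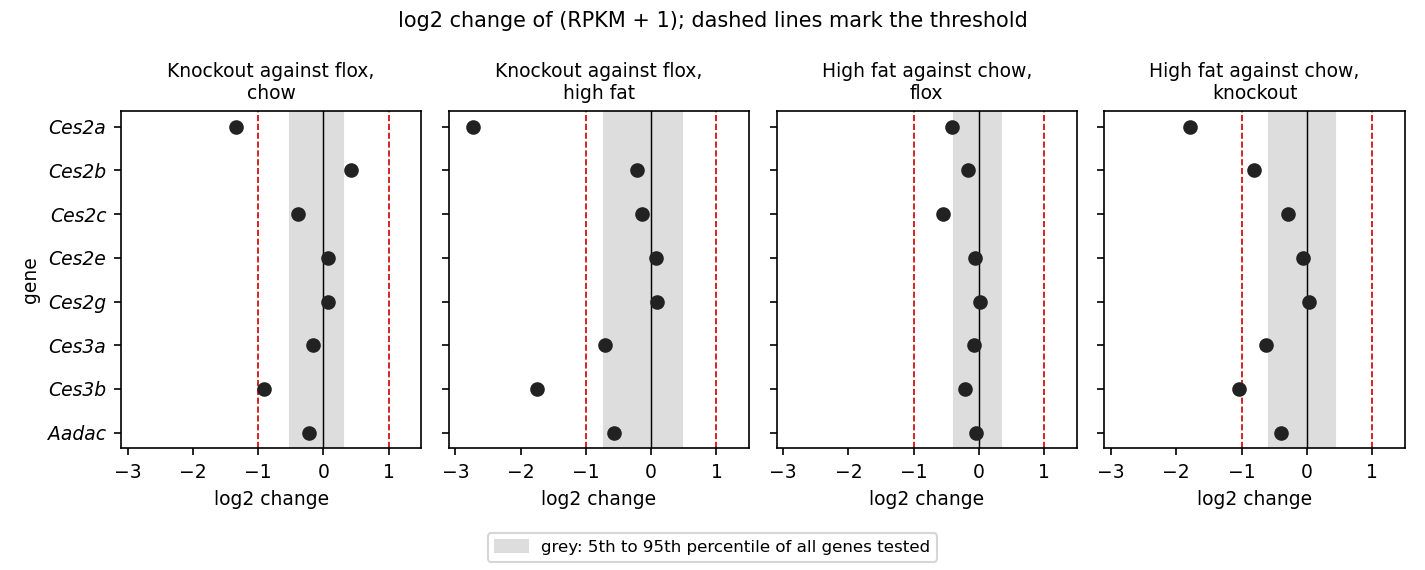
log2 change of RPKM + 1 for the 8 genes in 4 comparisons, with dashed lines at the threshold of 1 and a grey band from the 5th to the 95th percentile of all genes tested. Ces2a lies past the threshold in 3 panels and Ces3b in 2, while Ces2e and Ces2g stay within 0.09 of 0 in each panel.

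Counted over the members, all 8 of which passed the filter, 1 fell in knockout against flox livers on chow (Ces2a) and 0 rose, where 1.37% of all genes tested fell and 0.252% rose. The median log2 change of the members was -0.19, beside -0.02 for all genes. On the high-fat diet 2 of 8 fell (Ces2a and Ces3b) and 0 rose, against 1.86% and 1.07% of all genes, with medians of -0.40 for the members and -0.13 for all genes. The median rescaling put the median over all genes here at 0.11 and the counts over all genes from 192 lower and 111 higher to 93 and 186. Both members stayed past the threshold under it, at -2.45 for Ces2a and -1.46 for Ces3b.

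With the high-fat diet in flox livers, 0 of 8 members passed the threshold in either direction, where 0.426% of all genes fell and 0.213% rose (44 and 22 genes, or 36 and 29 after the median rescaling). The median was -0.12 for the members and -0.01 for all genes. In knockout livers 2 of 8 fell with the diet, again Ces2a and Ces3b, and 0 rose, against 0.794% and 0.668% of all genes (82 and 69 genes, or 47 and 132 after the median rescaling). After either rescaling the member count was 1, Ces2a. The medians were -0.51 and -0.11. The former includes Ces2b (-0.80), whose negative change here was favoured by the filter. For the difference between the 2 knockout changes, 1 of 8 lay past the threshold, Ces2a on the low side, where 0.572% of all genes were on the low and 0.659% on the high side (59 and 68 genes, or 30 and 112 after rescaling). The counts of 1 or 2 of 8 lie above the background shares for falls and rest on 2 genes. The comparisons share groups with each other, so their counts are not separate evidence.

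Along chromosome 8 the changes did not run with position. Ces2a and Ces3b, at opposite ends of the row and 349.8 kb apart, had the lowest knockout changes, and Ces2e and Ces2g lay between them. Ces4a, the next carboxylesterase gene after Ces3b, was low in all groups (1.99 and 1.77 RPKM in flox livers, 0.993 and 0.352 in knockout livers), with log2 changes of -0.59 on chow and -1.03 on the high-fat diet (-0.94 after the median rescaling).

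**Figure D3:**
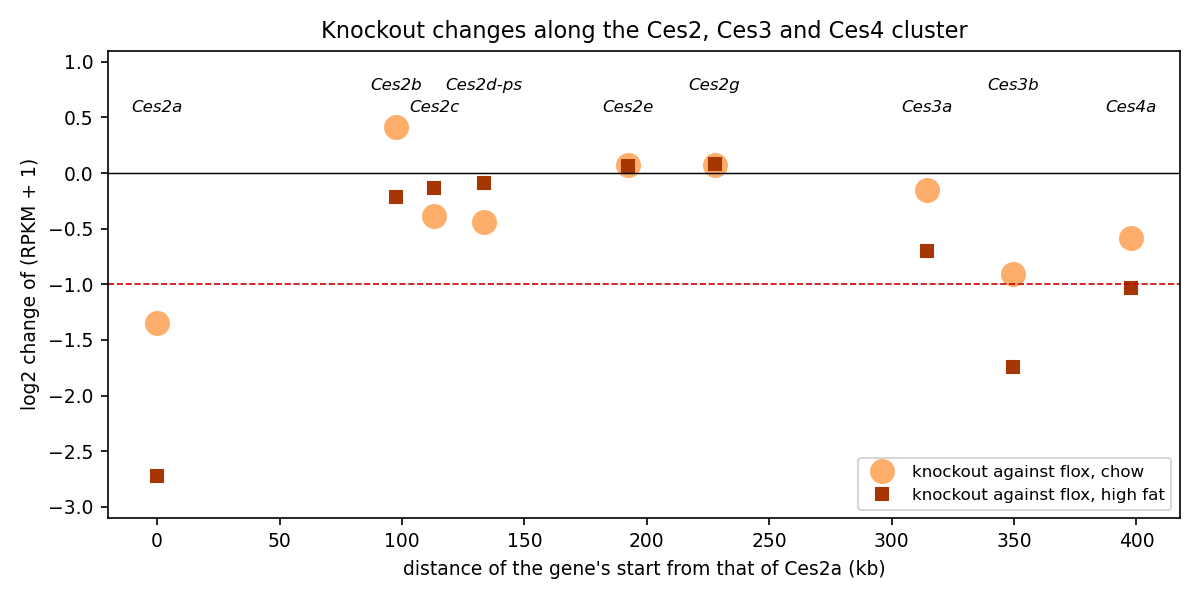
log2 change of RPKM + 1 in knockout against flox livers for the genes of the row, placed by the distance of their start from that of Ces2a in kb, with circles for chow and squares for the high-fat diet and a dashed line at -1. Ces2a at 0 kb and Ces3b at 349.8 kb reach -2.72 and -1.75 on the high-fat diet, and the points of Ces2e and Ces2g between them overlap near 0.

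The Ces1 genes of the same family, which lie elsewhere on chromosome 8, were set beside the members. Their summed RPKM was 1807 and 1557 in flox livers and 205 and 272 in knockout livers. In knockout livers on chow the 6 Ces1 genes with at least 1 RPKM held between 8.84% and 18.2% of their flox chow levels, against 39.0% for Ces2a and 53.0% for Ces3b. On the high-fat diet knockout livers held between 11.5% and 18.2% of the flox chow level, against 10.8% for Ces2a and 25.4% for Ces3b. These shares join the genotype and the diet. Relative to flox livers on the high-fat diet, they held between 12.7% (Ces1e) and 29.9% (Ces1b). The matched shares were 14.4% for Ces2a, above that of Ces1e and of Ces1d (14.2%), and 29.4% for Ces3b. The change of Ces1g in knockout livers with the diet was 0.93 and that of Ces1c 0.48 on the log2 scale, opposite in sign to the falls of Ces2a and Ces3b. Of the 6 Ces1 genes, 5 had the higher value on the high-fat diet in knockout livers. Ces1b had the same order of groups as Ces2a and Ces3b, with a log2 change of -0.14 that turned to 0.10 after either rescaling. The differences between Ces1 genes and members were not tested. Over the 8 tested family genes outside the members, 6 fell in knockout livers on chow and 7 on the high-fat diet (6 after either rescaling).

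**Figure D4:**
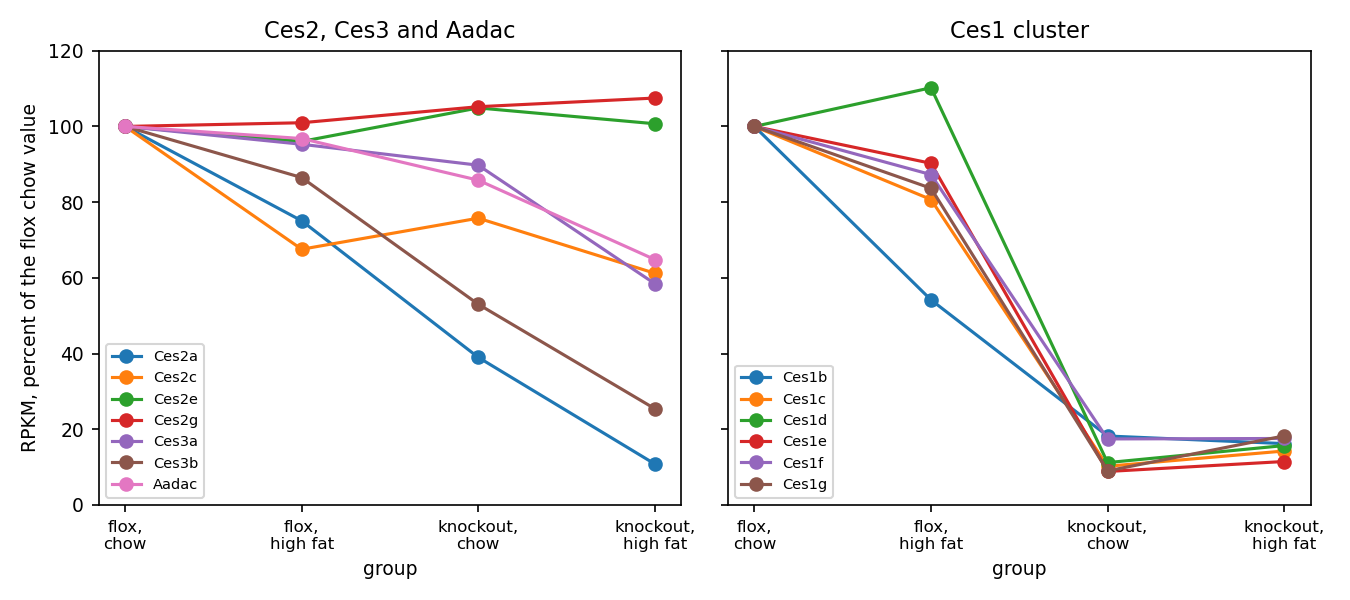
RPKM in each group as a percent of the value in flox livers on chow, for 7 of the members on the left (Ces2b, near 1 RPKM, is left out) and 6 Ces1 genes on the right, with lines joining the values of a gene. On the left Ces2a drops from 39.0% to 10.8% between the 2 knockout groups, and on the right the Ces1 genes lie at or under 18.2% in both knockout groups.

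Genes with the most similar profile were found by the distance between log2 values centred on each gene's mean over the 4 groups, among 5623 genes with a mean of at least 5 RPKM, with the members themselves left out. For Ces2a the nearest outside the members were Phlda1 (distance 0.83), Gm4956 (0.86) and Mup3 (0.90), with 0 genes within 0.25. The member Ces3b lay at 0.89 from Ces2a, between Gm4956 and Mup3. Phlda1 stood at 61.0 and 43.2 RPKM in flox livers and at 41.4 and 11.1 in knockout livers. For Ces3b the nearest were Mup3 (0.23), a major urinary protein gene, Sucnr1 (0.27), the succinate receptor gene, and 1100001G20Rik (0.35). Ces2c was matched by Gstm7 (0.06), Serpina10 (0.06) and Ces2d-ps (0.06). Ces3a was matched by Cyp4v3 (0.01), Mrpl18 (0.03) and Tdo2 (0.03), and 558 genes lay within 0.25 of it. Aadac was matched by AI316807 (0.01), Lmf1 (0.02) and Jmjd8 (0.02). Ces2e (Mta1, Arhgef1 and Leprotl1) and Ces2g (Ubqln4, Adrbk1 and Stk24) had 1645 and 1316 genes within 0.25, as flat profiles do. Ces2b was nearest to Snrpd2 (0.10), 5033403H07Rik (0.10) and Smagp (0.11). With 4 values per gene these distances are descriptions.

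For other ester and lipid hydrolases of the liver, the counts on the high-fat diet depended on the scaling. Of 15 tested neutral lipid hydrolases and their regulators, 1 fell in knockout against flox livers on chow and 3 on the high-fat diet, and 0 rose (medians -0.08 and -0.24), but on the high-fat diet 0 fell after either rescaling. Daglb, a diacylglycerol lipase gene, fell from 7.86 to 2.54 RPKM on chow, also after both rescalings. On the high-fat diet its log2 change of -1.17 became -0.94 after the median rescaling. Lipc, hepatic lipase, fell from 67.9 to 28.3 RPKM on the high-fat diet, a log2 change of -1.23 that became -0.95 after it. G0s2, an inhibitor of adipose triglyceride lipase, had 149 and 69.7 RPKM in these groups, and its -1.09 became -0.81.

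Among 19 tested hydrolases and oxidases of drug metabolism, most of them in the ER where the members reside, 2 fell in knockout against flox livers on chow and 4 on the high-fat diet, and 0 rose (medians -0.20 and -0.33). After either rescaling 2 fell and 1 rose on the high-fat diet. Cyp2e1, which oxidises ethanol and small solvents, fell from 4912 to 2138 RPKM on chow and from 5287 to 1707 on the high-fat diet, under both rescalings too. Cyp3a25 fell on the high-fat diet by 1.32 on the log2 scale and by 1.03 after the median rescaling. The falls of Cyp1a2 (-1.05) and Ephx2, soluble epoxide hydrolase (-1.10), ended there at -0.76 and -0.81.

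Of 12 genes for nuclear receptors and liver transcription factors, 1 fell in knockout against flox livers on each diet and 0 rose (medians -0.15 and -0.43), with the same counts after both rescalings. That gene was Srebf1, a regulator of lipid synthesis, which fell from 79.7 to 35.2 RPKM on chow and from 143 to 32.4 on the high-fat diet. Hnf4a, named after its values were seen because its recognition letters were searched, stood at 95.4 and 97.5 RPKM in flox livers and at 87.0 and 72.2 in knockout livers.

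CTGCAG is carried by most members, as by 80.2% of coding transcripts between 1300 and 3500 bases, so it does not set the members apart. Messenger RNAs reported as IRE1 decay substrates were set beside the members. The list came partly from work on altered Xbp1 and holds 2 Ces1 genes, so it is not independent evidence. Of 9 tested, 4 fell in knockout against flox livers on each diet (both Ces1 genes, Bloc1s1 and Hgsnat), and 1, Scara3, rose on the high-fat diet, with the same counts after both rescalings. Scara3 stood at 0.395 and 0.494 RPKM in flox livers and at 0.919 and 2.51 in knockout livers. It passed the filter of 1 RPKM through the last group alone, which favoured its rise. The medians were 0.05 and 0.41, above 0 although more of the genes fell than rose. Bloc1s1, a subunit gene of a lysosome biogenesis complex, fell from 76.5 to 18.3 RPKM on chow and from 87.8 to 21.8 on the high-fat diet. Hgsnat, a lysosomal acetyltransferase gene, fell from 18.1 to 4.61 RPKM on chow and by 1.37 on the log2 scale on the high-fat diet, where Ces2a had -2.72 and Ces3b -1.75.

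Markers of cell types differed between the groups in which the members differed. Of the 12 hepatocyte markers, 3 were at 0 in at least 1 group. Alb was at 0 in all groups, Serpina1a in all but knockout livers on the high-fat diet (1858 RPKM), and Serpina1b in both flox groups (6623 and 3095 RPKM in knockout livers). The other 9 summed to 42029 and 36613 RPKM in flox livers and to 31018 and 20805 in knockout livers, most of each sum being Apoa1 and Apoa2. In knockout against flox livers on the high-fat diet 3 of 9 tested fell, and 0 after either rescaling. The 8 cholangiocyte and progenitor markers summed to 23.8 and 25.1 RPKM in flox livers and to 46.7 and 119 in knockout livers, most of the sum being Spp1. In knockout against flox livers on the high-fat diet 4 of 7 tested rose (Spp1, Cd24a, Epcam and Tspan8). Epcam (0.302 and 2.01 RPKM) and Tspan8 (0.325 and 2.82) passed the filter of 1 RPKM through knockout livers alone, which favoured their rises. The 8 macrophage markers summed to between 156 and 259 RPKM and the 8 stellate cell markers to between 98.4 and 166, each highest in knockout livers on the high-fat diet. The 7 endothelial markers summed to between 64.7 and 73.9 RPKM. Most of the endothelial sum was Clec4g and most of the stellate sum was Dcn, in every group. In bulk liver, fewer hepatocytes and less RNA per hepatocyte cannot be told apart, and the part of these shifts in the changes of Ces2a and Ces3b was not tested. In flox and knockout livers on the high-fat diet Ces2e stood at 92.7 and 97.2 RPKM and Aadac at 355 and 238. The relation of either to the marker shifts was not tested. Of the intestinal markers Sis and Cdx2 were at 0 in all groups, as were Prss2, Cpa1 and Pnlip among the pancreatic ones. Vil1 of the former and Cela2a and Amy2a5 of the latter stayed under 1 RPKM. The pancreatic marker Cela1 stood at 12.2 and 6.47 RPKM in flox livers and at 8.76 and 3.39 in knockout livers. Its log2 change with the diet in knockout livers, -1.15, became -0.92 after either rescaling. The intestinal marker Fabp2 is described further below. Of the adipocyte markers only Cfd reached 1 RPKM in any group, at 9.76 in flox livers on the high-fat diet, while Adipoq, Plin1, Lep and Retn were each at 0 in at least 1 group.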

How the data were processed

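Liver RNA of 4 groups was used as 4 deposited tables, each with 1 RPKM value per gene. Per the file headers these deposited values are RPKM, which scales reads by transcript length and library size. The submitters' processing notes name TopHat2 2.0.7, Cuffdiff 2.1.1 and the build mm10, and give none of them a role. The labels do not state the annotation or how the libraries of a group became 1 value. A table was assigned to its group where its name carried the shared start of that group's sample titles. Rows that repeat a symbol (256 extra rows) were summed.

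Depth is unknown, so no counting error can be given. Low values times transcript length lay within 0.05 of whole multiples of a step in 16.9% to 20.8% of cases, too few to recover reads.

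A gene was kept if any group had 1 RPKM or more (10351 genes). A pseudocount of 1 RPKM was added, and an absolute log2 change of 1 was the threshold. A gene at 0 in a group did not enter comparisons with that group. No test was possible with 1 value per group. All 8 members are named, with the 3 nearest profiles of each and up to 4 genes per list and comparison. The members and lists were chosen with earlier results of these data known. One gene of the list of IRE1 decay substrates is not reported here and was left out of its counts. Symbols were matched to GENCODE M21 and RefSeq on GRCm38, the assembly of mm10. The steps were tested on simulated data. Python 3.11.15, numpy 2.4.6, pandas 2.3.3, biopython 1.88 and matplotlib 3.10.9 were used.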

Additional observations from a re-analysis of the deposited data

How the results depend on the processing

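Alternatives were pseudocounts of 0.1 and 5 RPKM, dropping the filter or setting it at 5 RPKM, calling at 1.5-fold, taking the highest row of a repeated symbol, 2 rescalings of the groups, and zeros kept. Summing near-identical copies was chosen after seeing the data. The call of Ces2a in knockout against flox livers on both diets, with the diet in knockout livers and in the difference of the knockout changes held under each of these. The number of members past the threshold moved in the following cases. At 1.5-fold it was 2 in place of 1 for knockout against flox on chow, 4 in place of 2 for the diet in knockout livers and 3 in place of 1 for the difference of the knockout changes, and for knockout against flox on the high-fat diet 3 in place of 2, by the addition of Ces3a. For the diet in knockout livers it was 1 with a pseudocount of 5 and under both rescalings, as Ces3b was lost. With copies summed it was 1 in place of 2 for the diet in knockout livers and for knockout against flox on the high-fat diet. Ces3b has no entry of its own in that setting, and most of the sum is Ces3a. The lower number therefore cannot decide whether Ces3b fell. With a pseudocount of 0.1 the number was 2 in place of 1 for the difference of the knockout changes. It was 3 in place of 2 for the diet in knockout livers, and Ces2b was the addition in each. At 1.5-fold Ces2b was also among the additions in these comparisons, where the filter favoured its negative values. Over all genes at the 2-fold threshold, the falls in knockout against flox livers ranged over the alternatives from 87 to 182 on chow (141 as reported) and the rises from 9 to 81 (26). On the high-fat diet they ranged from 90 to 263 (192) and from 37 to 231 (111). With the diet the ranges were 29 to 63 falls (44) and 11 to 61 rises (22) in flox livers, and 47 to 116 (82) and 30 to 189 (69) in knockout livers. For the difference of the knockout changes they were 30 to 97 on the low side (59) and 38 to 143 on the high side (68). When profiles were compared among the 2258 genes with a mean of at least 20 RPKM, all 3 nearest genes were shared for Ces3a and Ces3b, 2 of 3 for Ces2a, Ces2b and Ces2c, 1 for Aadac and 0 for Ces2e and Ces2g. No paired analysis was possible because the tables hold 1 value per group and carry no replicate numbers. Of 390 recomputed values of single members, 379 kept their side of the threshold and 0 called ones changed direction; signs short of the threshold did change under rescaling for Ces2c, Ces2e, Ces3a and Aadac.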

Other observations

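Genes of the 2 liver zones differed in the groups where Ces2a was lowest, with counts that depended on the scaling. Of 11 periportal genes, 4 fell in knockout against flox livers on the high-fat diet and 0 rose (median -0.93, beside -0.13 for all genes), and with the high-fat diet in knockout livers 7 of 11 fell (median -1.10). After either rescaling these counts were 1 and 4. Hal, a histidine-degrading enzyme, fell from 90.4 RPKM in flox livers on the high-fat diet to 29.3 in knockout livers, also after both rescalings. Sds, serine dehydratase, had 77.6 and 34.2 RPKM, a log2 change of -1.16 that became -0.88 after the median rescaling. Of 11 pericentral genes, 2 fell in that comparison and 1 rose (median 0.38), against 1 and 3 after either rescaling. The ones that fell were Cyp2e1 and Cyp1a2, and the one that rose was the glutathione transferase gene Gstm1, from 778 to 2660 RPKM, although reads of that family can be split between copies. Glul, glutamine synthetase of the cells around the central vein, stood at 368 and 677 RPKM.

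Fabp2, a fatty acid binding protein gene best known from intestine and placed in the list of intestinal markers, was the only member of that list with at least 1 RPKM. It stood at 61.3 and 159 RPKM in flox livers on chow and the high-fat diet and at 29.1 and 40.9 in knockout livers.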
